A study of Mus musculus with 46 samples.

Results

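The late step of oxygen injury was examined in wild type mouse lung by setting arrays taken at 72 h of 100% oxygen against arrays taken at 48 h. The arrays were chosen by the genotype and time in their titles, which gave 12 of 46 arrays, with 2 arrays a side on each of 3 array types called A, B and C. RNA came from whole lung, and each array type carries its own probe sets, sets of short oligonucleotides matched to a transcript; 546 of the probe sets tested below carry several gene symbols. The remaining arrays hold wild type lung at 0 h (2 arrays of each type) and 24 h (1 of type A, 2 of B and 2 of C) and lung of Nrf2 mutant mice at 0, 24, 48 and 72 h. Of these the wild type arrays at 0 h and 24 h and the mutant arrays at 48 h and 72 h are used below for comparison. All groups enter the estimate of spread. The labels give neither the strain, age or sex of the mice nor the kind of Nrf2 allele. Nothing in them tells whether replicates 1a and 1b came from different animals, and the p-values therefore speak only to the scatter between these arrays, which may be technical.

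Breathing pure oxygen floods the lung with reactive oxygen species, and rodents exposed for days develop leak across the alveolar wall, inflammation and death of endothelial and epithelial cells. Cells answer with several programmes that can be read in RNA. NRF2, the product of Nfe2l2, drives genes that make glutathione and reduce oxidised proteins. ATF4 drives genes of amino acid supply when translation is restrained by stress, and heat shock factor drives chaperones when proteins misfold. In whole tissue, fewer cells of a type and less RNA per cell cannot be told apart.

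The 12 arrays resembled each other closely: replicates correlated across probe sets between 0.962 and 0.972 (type A), 0.948 and 0.959 (type B) and 0.914 and 0.915 (type C), and no array stood apart. The lung identity of the tissue was borne out by its defining transcripts. Surfactant protein C (Sftpc) read 10874 and 14526 at 48 h and 12523 and 15485 at 72 h, in deposited intensity units, as used throughout, each pair of values being replicates 1a and 1b. The type 1 cell receptor Ager read 16752 and 16408 at 48 h and 14172 and 14026 at 72 h. Neither was called between the times (log2 differences 0.15 ± 0.28 and -0.23 ± 0.19 SE).

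Of 26833 probe sets tested, 160 (0.596%) passed an adjusted p under 0.05 by limma with Benjamini-Hochberg adjustment over all 3 array types, and these are the ones said to be called. The 106 that rose (0.395%) represent 92 genes, and the 54 that fell (0.201%) represent 40 genes. Differences are given as log2 of the intensity plus an added value (78.1 on A, 126 on B and 106 on C), with the standard error from the fit, so they understate the change of dim probe sets. On that scale 89 rises and 38 falls exceeded 2-fold, 7 rises and 6 falls exceeded 4-fold, and the smallest called difference was 0.76. In all 160 the 2 arrays of 72 h lay wholly above or wholly below the 2 arrays of 48 h, an order that 21.6% and 23.1% of all tested probe sets also showed. In all, 3330 probe sets (12.4%), the called ones included, had an unadjusted p under 0.05.

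With 2 arrays a side, the calls rested on an estimate of spread shared by all groups of an array type. When the fit held only the 12 arrays compared, 4 probe sets were called. Leaving out 1 replicate left 13 calls without 48 h replicate 1a, 9 without 48 h replicate 1b, 55 without 72 h replicate 1a and 17 without 72 h replicate 1b. Only 7 probe sets were called in all 4 of these fits: those for Hspa1a, Hspa1b, Lgi3 and Snhg12 and the probe sets 95228_f_at, 99915_at and 102816_at, which carry no single gene symbol. All 160 kept their sign in all 4 fits. Every other call below was lost without at least 1 of the replicates. Of the 132 genes with a called probe set, 68 had more than 1 tested probe set, and in 26 of those the probe sets differed in sign, as is said below for the genes concerned.

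**Figure D1:**
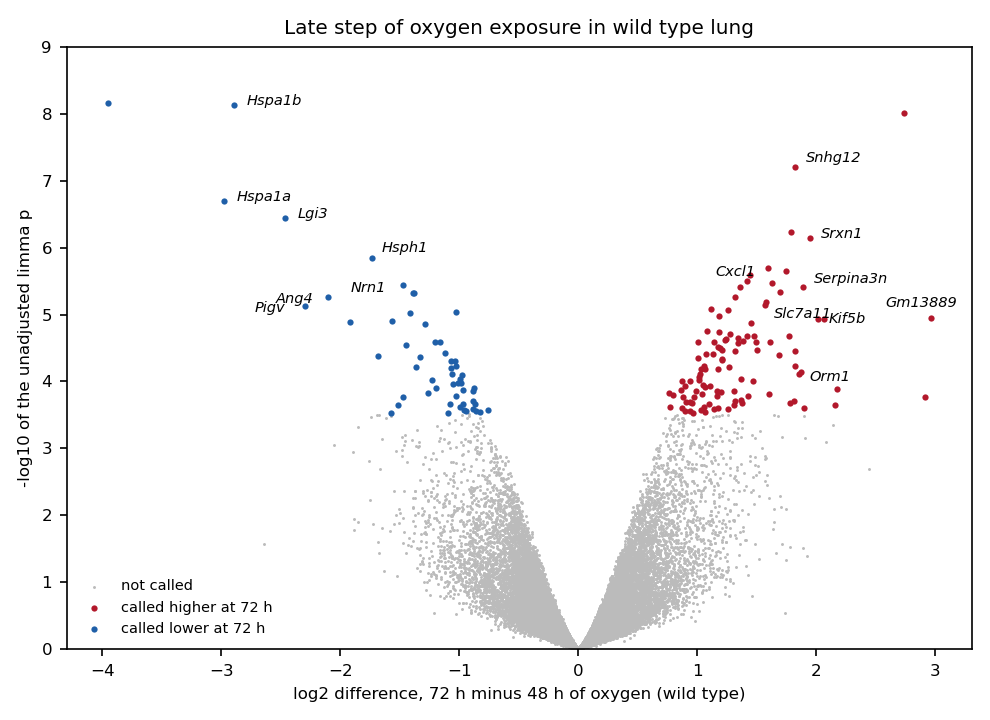
Log2 difference between 72 h and 48 h of oxygen in wild type lung (x) against the negative log10 of the unadjusted limma p (y) for 26833 probe sets, each a point, with called rises in red, called falls in blue and all others in grey. Among named genes Hspa1b, Hspa1a and Lgi3 lie farthest up on the left and Snhg12 and Srxn1 on the right; the unlabelled point at the far left is 95228_f_at at -3.95.

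Among probe sets with a single gene symbol, the furthest falls were those of the heat shock chaperones Hspa1a and Hspa1b. Hspa1a and Hspa1b encode the inducible HSP70 proteins, which refold damaged proteins. The Hspa1b probe set read 372 and 272 at 0 h, 6305 on the single type A array at 24 h, 7371 and 8240.2 at 48 h and 965 and 999 at 72 h. The drop after 48 h was -2.89 ± 0.17 on the log2 scale (adjusted p = 8.76e-05, limma), and both 72 h arrays still stood above both 0 h arrays. Hspa1a followed the same course, from 363 and 208 at 0 h through 5672 at 24 h and 8349 and 6788 at 48 h to 1049 and 749 at 72 h (-2.98 ± 0.25, adjusted p = 0.00108), and its second probe set, on type C, also fell (-1.51 ± 0.29, adjusted p = 0.0431). The 2 genes are near-identical copies, so their probe sets may share signal and are uncertain as separate measurements.

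Cochaperones moved with them. Hsph1, the HSP110 exchange factor of HSP70, went from 5939.8 and 4950.4 at 48 h to 1459 and 1694 at 72 h (-1.74 ± 0.18, adjusted p = 0.00422). Dnaja1, a J-domain partner of HSP70, went from 7452 and 7813 to 2821 and 3468 (-1.27 ± 0.22, adjusted p = 0.0355). At 0 h it had read 2221 and 3002, so its 72 h arrays overlapped the range before oxygen. The collagen chaperone Serpinh1 (HSP47) went from 4694 and 4513 to 2513 and 2069 (-0.99 ± 0.16, adjusted p = 0.0294), which placed both arrays below the 0 h readings of 3611 and 3541. Within the heat shock list of 15 measured genes, these 5 fell and none rose, against 0.239% of all 13411 genes that fell by the same measure, the brightest probe set of each gene. By that measure 104 genes (0.775%) were called in either direction, 72 higher (0.537%) and 32 lower (0.239%). The heat shock list's median was -0.45, beside -0.015 over all genes. The members not called ranged from -0.98 for Dnajb1 to 0.07 for the mitochondrial chaperonin Hspd1, and the constitutive Hspa8 stood at -0.24 and the HSP90 gene Hsp90aa1 at -0.17. Outside the list, 3 HSP90 cochaperones named after their values were seen also fell: Ahsa2, from 3838 and 3460.3 to 1540.3 and 1135 (-1.38 ± 0.18, adjusted p = 0.00635), Fkbp4, from 6283 and 5439 to 3270.2 and 3038 (-0.87 ± 0.15, adjusted p = 0.033), and Chordc1, from 2833 and 3241 to 1602 and 1423 (-0.97 ± 0.17, adjusted p = 0.0339). The other Fkbp4 probe sets gave -0.82, -0.07 and -0.20 and were not called. Hspa4, an HSP110 relative, fell on its brightest probe set (-1.07 ± 0.19, adjusted p = 0.0431) but differed by 0.22, 0.22 and 0.34 on 3 dimmer ones, not called.

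The promoters of these genes are shown because heat shock factor binds inverted repeats of a short element, here searched as GAANNTTC and TTCNNGAA on both strands in the 250 bases before each start site of RefSeq genes (GRCm38.p6). The genes searched were chosen after their values were seen. A match was found in 5 of 10 chaperone genes searched and in 12.8% of all 32851 promoters; each match is a description, not a site or a cause. The stretches lie at chr17:34972223-34972290 (Hspa1a, minus strand, the match 104 bases before the start), chr5:149636337-149636399 (Hsph1, minus, 33 bases), chr4:40722314-40722381 (Dnaja1, plus, 124 bases) and chr6:128438770-128438837 (Fkbp4, minus, 151 bases), and capitals mark the match. The Hspa1b promoter, with the same stretch at chr17:34959305-34959372, was identical to that of Hspa1a at 247 of 250 bases.
Hspa1a: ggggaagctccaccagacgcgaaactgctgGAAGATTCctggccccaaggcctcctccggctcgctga
Hsph1: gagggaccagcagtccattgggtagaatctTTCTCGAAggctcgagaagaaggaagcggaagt
Dnaja1: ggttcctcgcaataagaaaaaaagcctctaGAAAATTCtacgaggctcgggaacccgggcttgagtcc
Fkbp4: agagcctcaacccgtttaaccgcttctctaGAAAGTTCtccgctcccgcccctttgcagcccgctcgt

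**Figure D2:**
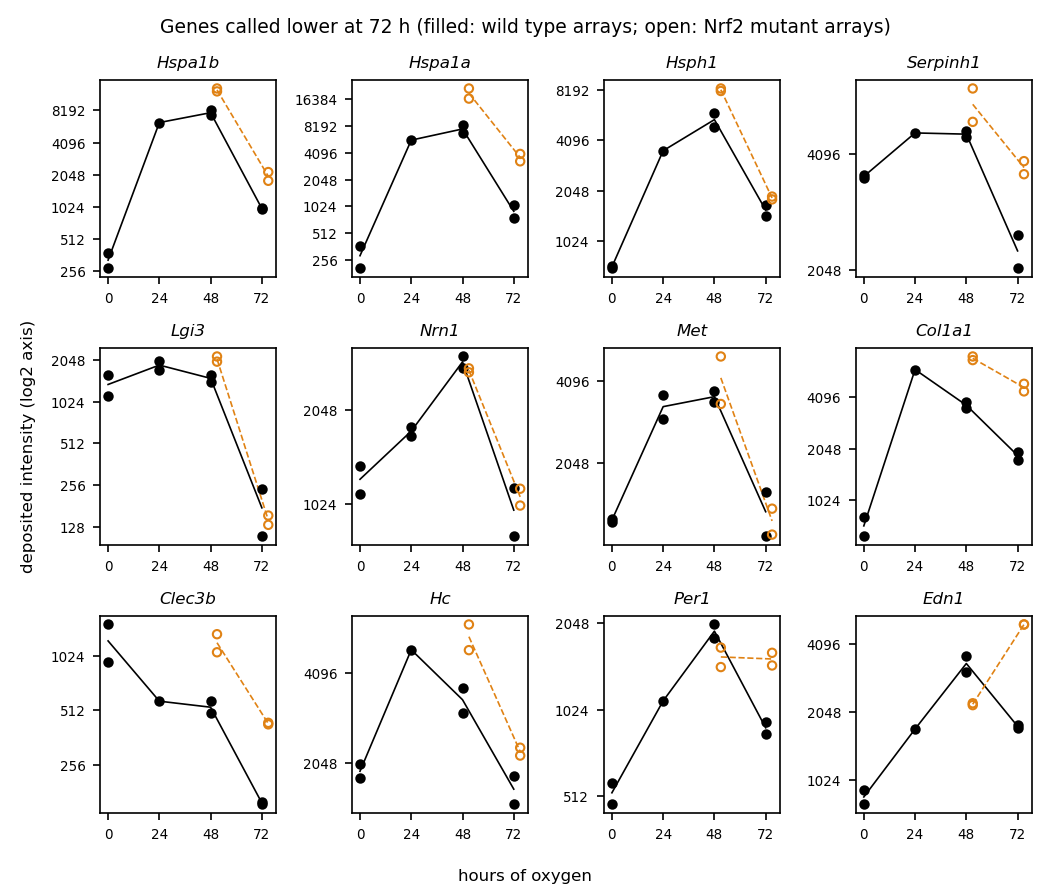
Deposited intensity (log2 axis) against hours of oxygen for 12 genes called lower at 72 h than at 48 h; filled black points are wild type arrays with a line through their means, and open orange points are Nrf2 mutant arrays at 48 h and 72 h, drawn slightly to the right. Wild type Hspa1b, Hspa1a and Hsph1 go up from 0 h to 48 h and drop at 72 h, the mutant arrays drop too, and for Edn1 the mutant arrays go up.

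In the extracellular matrix list of 29 genes, Col1a1 was the only called gene, beside 0.775% of all genes, and 13 had an unadjusted p under 0.05. Col1a1, the main chain of type I collagen, had risen from 820.3 and 637 at 0 h to 5918 on the 24 h array; it read 3530.2 and 3809.9 at 48 h and 1772 and 1973 at 72 h (-0.94 ± 0.18, adjusted p = 0.0484). Its other probe set gave -0.50 ± 0.16 and was not called. Outside the list, 3 other genes that fell are named after their values were seen and stand for no group. P4ha1 is also the 1 called gene of 21 hypoxia targets by brightest probe set, given below. P4ha1, the prolyl hydroxylase subunit that stabilises the collagen triple helix, went from 1512 and 1328 to 718 and 561 (-1.07 ± 0.17, adjusted p = 0.0219), with its type B probe set at -1.23 ± 0.22 (adjusted p = 0.0277) and the dimmest at -0.41, not called. The lysyl hydroxylase Plod1 went from 3146 and 2840.0 to 1125 and 1523 (-1.12 ± 0.18, adjusted p = 0.0163). Plod1 had 5 other tested probe sets, which ran from -1.33 to 0.98 and were not called. The matrix list's median was -0.24, with Col15a1 at -1.04, Col6a3 at -0.91 and Col1a2 at -0.90, and with tenascin C (Tnc) at 1.08; of these none was called. Fibroblast markers had 1 called of 17 (Col1a1 again), beside 0.775% of all genes, and a median of -0.34. Their summed level went from 82770.6 and 87461.2 at 48 h to 71219.3 and 63975.8 at 72 h. These markers include Col1a1, Col1a2 and Col3a1, so the median and sum hold part of the collagen fall itself. A sum without the collagens is not given, and whether fibroblast level had a part in the collagen values was not tested. Agrn, the basement membrane proteoglycan agrin, went from 2937 and 2951 to 1459.8 and 1419.6 (-0.99 ± 0.18, adjusted p = 0.045), with 3 other probe sets between -0.24 and 0.46.

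Among epithelial and other transcripts that fell, Lgi3, a secreted leucine-rich repeat protein, had 1599 and 1412 at 48 h and 242 and 111 at 72 h (-2.47 ± 0.25, adjusted p = 0.00158). Its 2 other probe sets, at -0.96 and -0.92, were not called. Both 72 h arrays lay far below the 0 h readings of 1132 and 1589. Met, the receptor of hepatocyte growth factor, had 1288 and 1255 at 0 h and 3419.6 and 3738 at 48 h, and went back to 1615 and 1114 at 72 h (-1.33 ± 0.22, adjusted p = 0.0172). Nrn1, the small membrane-anchored protein neuritin, went from 3026 and 2789.6 to 809 and 1147 (-1.48 ± 0.19, adjusted p = 0.00606), and the transcript Tcim from 2102 and 2254 to 712 and 594 (-1.57 ± 0.23, adjusted p = 0.00992; second probe set -1.47 ± 0.27, adjusted p = 0.0375). For both, the 48 h arrays stood above those of 0 h; at 72 h Tcim lay below them and Nrn1 overlapped them. Clec3b, the plasminogen-binding protein tetranectin, fell from 574 and 494 to 157 and 161 (-1.37 ± 0.21, adjusted p = 0.0213). Hc, complement component 5, listed here with type 2 cell markers, went from 3011 and 3654 to 1497 and 1857 (-0.96 ± 0.18, adjusted p = 0.0476). It was the only called gene of the 15 type 2 markers, beside 0.775% of all genes. The median of these markers was -0.26, and their summed level went from 280100 and 289256 to 265141 and 255019. Aox3, an aldehyde oxidase, went from 3541 and 3354 to 1446 and 1487 (-1.17 ± 0.18, adjusted p = 0.0132), and Scn7a, a sodium channel gene, from 10426 and 9673 to 4888 and 4853 (-1.03 ± 0.14, adjusted p = 0.00869). Pltp, the phospholipid transfer protein, went from 11195 and 9712 to 5492 and 5109 (-0.97 ± 0.18, adjusted p = 0.0431).

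The remaining falls among the largest were Pigv (1141 and 1489 to 187 and 175; -2.30 ± 0.31, adjusted p = 0.0079), an enzyme of membrane anchor synthesis, and Ang4 (475 and 520.0 to 26.4 and 12.7; -2.10 ± 0.28, adjusted p = 0.0067), an angiogenin ribonuclease. A second Ang4 probe set gave 0.01. In 18 of the rises and 9 of the falls, among them Pigv, Ang4, Lgi3 and Clec3b here and Sdad1, Orm1, Cflar, Nqo1 and Rnf41 below, the mean of 1 group lay under the intensity used to filter probe sets, so the size of these differences depends most on the added value. Per1, a repressor of the circadian clock that glucocorticoids induce, fell from 2031 and 1819 to 925 and 843 (-1.06 ± 0.17, adjusted p = 0.0245); its dim second probe set gave -0.16. Per1 was the only call among 18 genes of the clock and glucocorticoid response, beside 0.775% of all genes. Edn1, the vasoconstrictor endothelin 1, fell on both probe sets. The brighter went from 3072 and 3633 to 1801 and 1741 (-0.89 ± 0.15, adjusted p = 0.0339) and the other from 2626 and 2352 to 819 and 749 (-1.57 ± 0.30, adjusted p = 0.0498). Edn1 had read 922 and 804 at 0 h, so on the brighter probe set it remained above its level before oxygen.

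Targets of NRF2 were among the larger rises. Srxn1, which reduces overoxidised peroxiredoxins, read 274 and 169 at 0 h and 295 and 269 at 48 h, and then 1283 and 1342 at 72 h (1.95 ± 0.19, adjusted p = 0.00241). A brighter second Srxn1 probe set read 469.6 and 463 at 48 h and 482 and 401 at 72 h (-0.07 ± 0.16), so the rise rests on 1 of 2 probe sets. Slc7a11, the cystine importer that feeds glutathione synthesis, climbed at each time, from 124 and 163 at 0 h to 354 and 346 at 24 h, 472 and 465 at 48 h and 1646 and 1642 at 72 h (1.58 ± 0.21 for the last step, adjusted p = 0.0075). Gclc, the catalytic subunit of the enzyme that starts glutathione synthesis, went from 2502 and 2618 to 4688 and 6032 (1.03 ± 0.19, adjusted p = 0.0474); a much dimmer probe set gave 0.30. Txnrd1, thioredoxin reductase, went from 2015 and 2340.2 to 3800.0 and 4699 (0.94 ± 0.17, adjusted p = 0.0484), and Osgin1, an oxidative stress growth inhibitor, from 389 and 432 to 859.9 and 1127 (1.05 ± 0.19, adjusted p = 0.0311). In each of these the 72 h arrays lay above all earlier wild type arrays.

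By brightest probe set, 2 of 25 NRF2 targets of glutathione and detoxification rose (Gclc and Slc7a11), as did 2 of 13 of redox and NADPH supply (Txnrd1 and Osgin1), against 0.537% of all genes; none of either list fell. The list medians were 0.10 and 0.24. Nqo1 passed only on a dim probe set (127 and 169 to 381 and 452; 1.13 ± 0.17, adjusted p = 0.0165) and stood at 0.35 on the brighter one. Several targets were not called: Gclm (779.6 and 1192 to 1859 and 2630.2; 1.13 ± 0.28, adjusted p = 0.122), heme oxygenase 1 (Hmox1, 5244 and 5112 to 8586 and 5329; 0.38 ± 0.24) and Gpx2 (3296 and 2842 to 4899.9 and 4085; 0.54 ± 0.18). The Gclm and Gpx2 arrays did not overlap between the times. The conjugating enzymes Gstm1, Gsta3 and Gsta4 stood at -0.28, -0.13 and -0.02. Nfe2l2 itself read 3338 and 4488 at 48 h and 3319 and 4231 at 72 h (-0.05 ± 0.21), overlapping between the times. Other antioxidant enzymes, a list of 15, gave no call and a median of -0.05.

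Targets of ATF4 and of amino acid shortage formed another group of rises. Atf4 itself went from 3209 and 3587 at 0 h to 6209.6 and 5992 at 48 h and 11244 and 11199 at 72 h (0.87 ± 0.14 for the last step, adjusted p = 0.0284). Atf3, a stress-induced repressor, went from 1113 and 1200.2 to 2712 and 2741 (1.18 ± 0.15, adjusted p = 0.00946), with a second probe set at 0.87 ± 0.17 (adjusted p = 0.0518). Chac1, which degrades glutathione, went from 2700.1 and 2613 to 5761 and 6017 (1.11 ± 0.15, adjusted p = 0.00861), and Trib3, a pseudokinase that restrains ATF4, from 529 and 526 to 1227 and 1151 (1.06 ± 0.18, adjusted p = 0.0316). Psat1, an enzyme of serine synthesis, went from 708 and 621 to 1557 and 2013 (1.32 ± 0.19, adjusted p = 0.0155), and outside the list Mthfd2, an enzyme of one-carbon metabolism, went from 2244 and 2576 to 5142 and 4792 (1.02 ± 0.16, adjusted p = 0.0245). The 2 other Psat1 probe sets, both dimmer, gave -0.06 and -0.35. In the list of unfolded protein and amino acid stress, 5 of 21 genes rose (Atf3, Atf4, Chac1, Trib3 and Psat1), beside 0.537% of all genes. None of the list fell, beside 0.239% of all genes, and its median was 0.28. Its chaperones of the endoplasmic reticulum were not called, with Hspa5 at 0.28, Hsp90b1 at -0.56, Pdia4 at -0.44 and Dnajb9 at 0.35, nor was the death factor Ddit3, at 0.31.

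Promoters of this group are shown for the element TGATGNAA, to which ATF4 binds with a partner, searched in the same way in genes chosen after their values were seen. It was found in 3 of 7 genes searched and in 3.45% of all promoters. The stretches lie at chr2:119351019-119351086 (Chac1, plus strand, 193 bases before the start), chr1:191183406-191183473 (Atf3, minus, 110 bases) and chr3:50443623-50443709 (Slc7a11, minus, 66 bases for the first of 2 matches); capitals mark the matches. The same search for TGACNNNGC, the core of the antioxidant response element, found 1 of 5 NRF2 target genes, Txnrd1, beside 10.2% of all promoters.
Chac1: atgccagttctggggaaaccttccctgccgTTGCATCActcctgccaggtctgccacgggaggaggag
Atf3: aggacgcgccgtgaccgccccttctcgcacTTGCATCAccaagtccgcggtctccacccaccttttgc
Slc7a11: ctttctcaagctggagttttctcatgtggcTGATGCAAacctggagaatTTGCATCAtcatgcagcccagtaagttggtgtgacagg

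**Figure D3:**
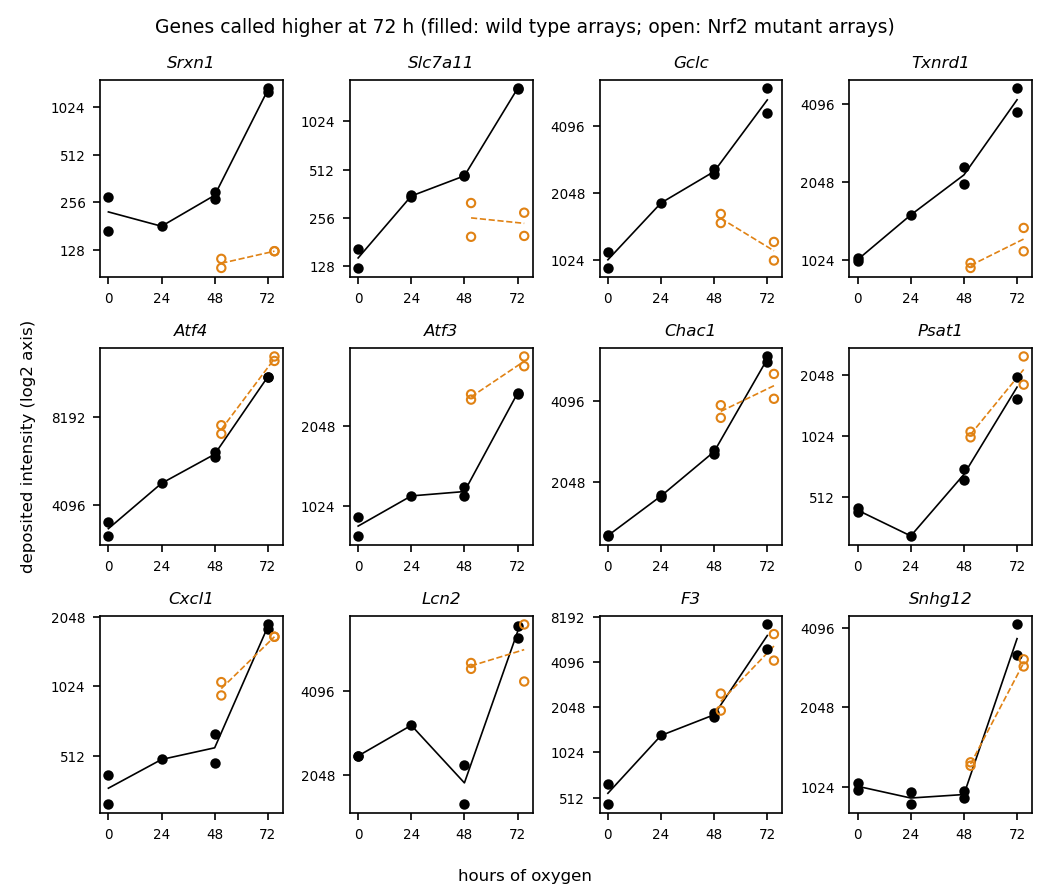
Deposited intensity (log2 axis) against hours of oxygen for 12 genes called higher at 72 h than at 48 h; filled black points are wild type arrays with a line through their means, and open orange points are Nrf2 mutant arrays at 48 h and 72 h, drawn slightly to the right. Snhg12 and Srxn1 stay near their 0 h level until 48 h, whereas Slc7a11, Atf4 and F3 climb from 0 h on. Mutant arrays of Srxn1, Slc7a11, Gclc and Txnrd1 lie below the wild type arrays of the same time.

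Of 14 genes in the metallothionein and acute phase list, 4 rose and none fell, beside 0.537% and 0.239% of all genes. The list's median was 0.49. Serpina3n, a serine protease inhibitor of the acute phase, read 3333 and 2556 at 0 h, 2719 and 3895 at 48 h and 11992 and 12589.7 at 72 h (1.89 ± 0.21, adjusted p = 0.00606). Lcn2, the iron-trapping lipocalin, went from 2218 and 1608 to 6311 and 7013 (1.77 ± 0.24, adjusted p = 0.0132), with a dimmer probe set at -0.08. For both, the 48 h arrays overlapped or lay below those of 0 h, and the 72 h arrays stood above all earlier ones. Serum amyloid Saa3 went from 3432 and 3213 to 7067 and 7041 (1.07 ± 0.20, adjusted p = 0.0488) and orosomucoid Orm1 from 48.9 and 60.2 to 407 and 396 (1.85 ± 0.30, adjusted p = 0.0248). Saa3 had already risen by 2.19 ± 0.24 from 24 h to 48 h (adjusted p = 0.0151), more than in the later step; no other of the 4 was called in that step. Metallothionein 1 (Mt1) was higher on both arrays, 7696 and 6336 against 14029.7 and 16177, but was not called (1.10 ± 0.24, adjusted p = 0.0802). Its neighbour Mt2 read 13844 and 14893 against 9791 and 12239 (-0.39 ± 0.17).

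Of 23 cytokines, chemokines and adhesion genes, Cxcl1 and Ccl2 rose, beside 0.537% of all genes, and the list's median was 0.43. Cxcl1, a chemokine for neutrophils, went from 633 and 473 to 1900.2 and 1816 (1.63 ± 0.18, adjusted p = 0.00606), and its second probe set agreed at 1.69 ± 0.20 (adjusted p = 0.00635). Ccl2, which draws monocytes, went from 611 and 642 to 1364 and 1903 (1.26 ± 0.20, adjusted p = 0.0211). Il6 was dim at 48 h, 56.3 and 12, and read 171 and 172 at 72 h (1.18 ± 0.23, adjusted p = 0.051, not called). Neutrophil markers showed 1 call of 14 (beside 0.775% of all genes), Lcn2, which epithelium also makes. Their median was -0.19: S100a8 read 9822 and 9647 against 9256 and 8709.8, and the granule genes Ltf and Camp stood at -0.59 and -0.57. The summed level of neutrophil markers was 27588 and 28175 at 48 h and 30356.3 and 31668.3 at 72 h with Lcn2 included. Without Lcn2 the other 13 genes summed to 25370.2 and 26567.5 at 48 h and 24045.2 and 24655.8 at 72 h, the opposite direction. Macrophage markers gave 0 calls of 20 (median -0.05), with 4 at an unadjusted p under 0.05.

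Of 16 genes of coagulation and fibrinolysis, F3 and Plat rose and none fell, beside 0.537% and 0.239% of all genes. F3, tissue factor, the trigger of clotting, climbed from 464 and 629 at 0 h to 1762 and 1887 at 48 h and 5015 and 7291 at 72 h (1.69 ± 0.25, adjusted p = 0.0167); its type B probe set gave 1.20 ± 0.26 (adjusted p = 0.0615). Plat, tissue plasminogen activator, which dissolves clots, went from 1614 and 2454 to 5297 and 5256 (1.37 ± 0.22, adjusted p = 0.0277), with 1.48 ± 0.33 (adjusted p = 0.0729) on type C. The urokinase receptor Plaur was higher on both arrays without a call (0.88 ± 0.18, adjusted p = 0.0703). Mmp3, stromelysin, went from 361 and 407 to 1084 and 1619 (1.61 ± 0.28, adjusted p = 0.0356). It was the 1 call among 17 proteases and inhibitors of matrix turnover, beside 0.775% of all genes. In that list Mmp9 stood at -0.69, Mmp12 at 0.81 and Timp1 at -0.07. Tnfrsf12a, the receptor of the cytokine TWEAK, went from 2607 and 2181 to 7787 and 7123 (1.59 ± 0.19, adjusted p = 0.00543). Matricellular Ccn1 went from 604 and 522 to 1572 and 1695 (1.42 ± 0.19, adjusted p = 0.0132) and Ankrd1, a target of YAP signalling with it, from 2173 and 2447 to 6954 and 5899 (1.44 ± 0.16, adjusted p = 0.00572). At 48 h the Ccn1 arrays overlapped those of 0 h and the Ankrd1 arrays lay below them.

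Of 19 genes of p53 and growth arrest, 2 rose and none fell, and of 20 immediate early genes 3 rose and none fell. Of all genes 0.537% rose and 0.239% fell. Gadd45a, which stalls the cycle after DNA damage, went from 1357 and 1520.2 to 3734 and 3798 (1.34 ± 0.19, adjusted p = 0.0133), and Gadd45g from 591 and 532 to 1261 and 1266 (1.07 ± 0.16, adjusted p = 0.0164). Outside these lists and named after its values were seen, Cdkn2b, an inhibitor of cyclin D kinases, went from 668 and 657 to 1533 and 1668 (1.18 ± 0.16, adjusted p = 0.0125). By contrast Cdkn1a, the p53 target p21, had made its climb earlier, with 477 and 424 at 0 h, 2599.7 at 24 h and 3828 and 3564 at 48 h, and read 4779 and 4311 at 72 h (0.29 ± 0.20, not called). The p53 and growth arrest list had a median of 0.34. The immediate early genes that rose were Egr1, Myc and Atf3, the last counted in the amino acid stress list above as well. Egr1 went from 1169 and 887 to 2056 and 2514 (1.10 ± 0.20, adjusted p = 0.0431) and Myc from 208 and 188 to 491 and 629.5 (1.20 ± 0.21, adjusted p = 0.0346). Fosl1, a subunit of AP-1, read 54.4 and 87.6 against 496 and 451 and was not called (1.90 ± 0.36, adjusted p = 0.051). Of 24 cell cycle genes none was called; their median was -0.14, and 3 had an unadjusted p under 0.05.

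Further rises lie outside the lists and are named after their values were seen, with no count of like genes that did not rise. Snhg12, a host transcript of snoRNAs, was level at 997 and 1060.4 at 0 h, 882 and 975 at 24 h and 929 and 986 at 48 h, and then read 4230.0 and 3244 (1.82 ± 0.16, adjusted p = 0.000411). The snoRNA hosts Snhg1 (645 and 629.9 to 1376 and 1565; 1.11 ± 0.19, adjusted p = 0.0316) and Zfas1 (1649 and 1222 to 3029 and 3079; 1.04 ± 0.19, adjusted p = 0.0356) rose too. So did Gnl3, nucleostemin (475 and 491 to 932 and 1124; 0.97 ± 0.17, adjusted p = 0.0375), and Rrs1, a ribosome assembly factor (418 and 466 to 999.7 and 931; 1.01 ± 0.15, adjusted p = 0.0178), the latter with a dim second probe set at -0.64. Sdad1, also of ribosome assembly, was at 48.5 and 41.9 and then at 551 and 632 (2.07 ± 0.30, adjusted p = 0.00951). Odc1, the first enzyme of polyamine synthesis, went from 752 and 833 to 1534 and 1955 (1.06 ± 0.16, adjusted p = 0.0211).

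Of 22 junction and keratin genes, 2 rose and none fell, beside 0.537% and 0.239% of all genes. The list's median was 0.05. Claudin 4 (Cldn4), a tight junction protein of alveolar epithelium, read 252 and 330.2 at 48 h and 1364 and 1088 at 72 h (1.82 ± 0.26, adjusted p = 0.0155). Keratin 8 (Krt8) went from 2635 and 2826 to 5395 and 5187 (0.94 ± 0.17, adjusted p = 0.0419). Outside the list, Upk1b, a uroplakin of surface membranes, went from 4394 and 5384 to 13756 and 14129 (1.50 ± 0.23, adjusted p = 0.0155); a second, scattered probe set gave 0.19 ± 0.71. Insig1, a brake on cholesterol synthesis, had read 1267 and 1858 at 0 h and went from 370.2 and 411 at 48 h to 1496 and 1127 (1.47 ± 0.26, adjusted p = 0.0284), so its 72 h arrays overlapped those of 0 h. Ch25h, an enzyme that hydroxylates cholesterol, went from 360.4 and 341 to 949 and 1308 (1.48 ± 0.20, adjusted p = 0.0132).

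For several of the largest rises, other probe sets of the gene did not match. Gm13889 read 1204 and 1429.8 at 48 h and 12576 and 9543 at 72 h on type C (2.96 ± 0.41, adjusted p = 0.00951), with a second type C set also called (2.18 ± 0.39, adjusted p = 0.0338), but 0.20 and -0.29 on type B. Kif5b, a kinesin heavy chain, read 402 and 591 against 1738 and 2811 (2.02 ± 0.26, adjusted p = 0.00951), but 0.15 on its brightest probe set. Cflar, an inhibitor of caspase 8, gave 1.89 ± 0.37 (adjusted p = 0.0462) on type C and -0.11, 0.51 and -0.50 elsewhere. Rnf41, a ubiquitin ligase, gave 1.78 ± 0.34 (adjusted p = 0.0427) and between -0.05 and 0.26 on 5 others. Ppp1r2, a phosphatase inhibitor, gave 1.82 ± 0.32 (adjusted p = 0.0419) and between -0.32 and 0.95 on 5 others. For these genes the data give no single direction. The transcript 2700069I18Rik read 232 and 328 and then 1720.5 and 899.8 (1.82 ± 0.30, adjusted p = 0.0211). It had read 924 and 1130 at 0 h and 932 and 1169 at 24 h, so its 72 h arrays overlapped those of 0 h. The 48 h arrays of Kif5b, Cflar, Rnf41 and Ppp1r2 also lay below those of 0 h (1387 and 1453 for Kif5b, 559 and 668 for Rnf41). At 72 h Cflar overlapped the 0 h arrays, and Kif5b, Rnf41 and Ppp1r2 stood above them.

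Many lists held no called gene. All 9 genes of MHC class II read lower at 72 h without a call (median -0.34, 3 at an unadjusted p under 0.05), and of 32 proteasome subunits 27 read higher without a call (median 0.31, 12 at an unadjusted p under 0.05). Respiratory chain genes had a median of 0.12 over 34 genes, interferon response genes -0.13 over 19 and fluid transport genes 0.21 over 17. Endothelial markers gave 0 calls of 23 with a median of -0.20, 6 at an unadjusted p under 0.05, and a summed level of 164196 and 164751 at 48 h and 139707 and 148959 at 72 h. Type 1 markers were at -0.04 over 12 genes, club cell markers at -0.18 over 10, smooth muscle at 0.14 over 13 and platelet at 0.36 over 8. None of the genes in these lists rose or fell by the test. Hemoglobin alpha (Hba-a1) scattered between replicates, with 2113 and 13228 at 48 h and 449 and 1341 at 72 h (-2.64 ± 1.03, adjusted p = 0.318).

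**Figure D4:**
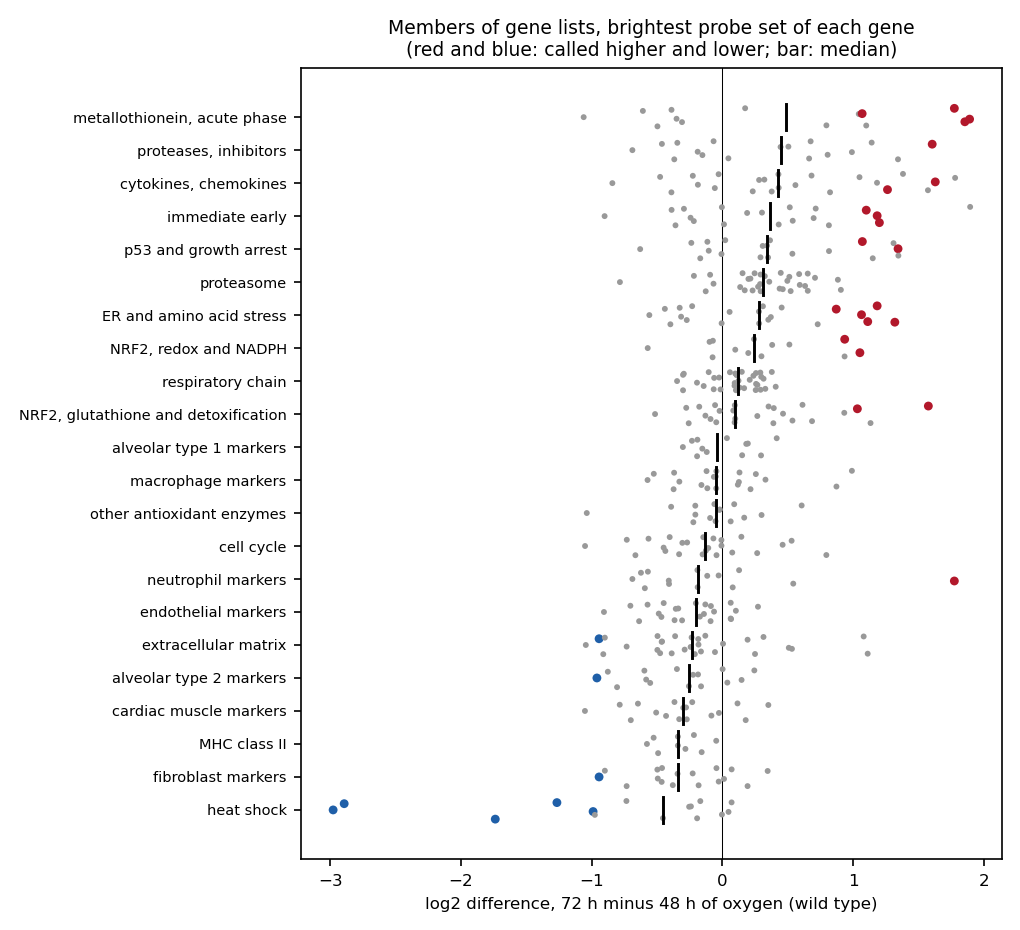
Log2 difference between 72 h and 48 h in wild type lung for the members of 22 gene lists, each point 1 gene by its brightest probe set, red for called rises, blue for called falls, grey for the rest, with a bar at the list median. The 5 blue points of the heat shock list and the 5 red points of the stress list stand on opposite sides of 0. Most markers of cell types lie in grey. In each marker list drawn but that of type 1 cells, more genes lie below 0 than above it.

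Set against lung before oxygen, most of the rises ended above the 0 h arrays and most of the falls ended at or below them, a description with no test. The calls were made on these same 48 h and 72 h arrays. Falls were thus picked for high 48 h or low 72 h values, and rises for the reverse. That choice by itself moves the counts below away from the shares of all probe sets. Of the 106 rises, 96 had both 72 h arrays above both 0 h arrays, an order that 22.4% of all probe sets showed; 9 overlapped them, as 49.4% of all probe sets did. At 48 h, 47 were already above (23.6% of all probe sets), 21 overlapped (48.7%) and 38 were below (27.6%), of which 28 went on to lie above at 72 h. Of the 54 falls, 37 had both 48 h arrays above both 0 h arrays, beside 23.6% of all probe sets. At 72 h, 11 of the 54 were still above (22.4% of all probe sets), 9 overlapped the 0 h arrays (49.4%) and 34 lay below them (28.1%); 17 had crossed from above to below. Hspa1b and Hspa1a belong with those still above, Met and Nrn1 with those that overlapped, and Lgi3 and Tcim with those below. The step from 24 h to 48 h, which shares the 48 h arrays, had 17 called probe sets (0.0634%), 10 higher (0.0373%) and 7 lower (0.0261%), with 2166 (8.07%) at an unadjusted p under 0.05. Of the 106 rises, 6 were called in it: 4 as falls (Gdpd1 -1.61, Acot1 -1.68, Wfdc21 -1.28 and 131070_i_at -3.71) and 2 as rises (Saa3 2.19 and 104646_at 2.18). Of the 54 falls, only Wdr18 was called in it, as a rise of 1.34. These 7 were named for their calls in both steps, after their values were seen. The calls of the step from 24 h to 48 h did not survive leaving out either 48 h replicate. Most were also lost without 24 h replicate 1b. That last fit held no type A contrast, because 1b is the only wild type 24 h array of type A. Leaving out 24 h replicate 1a lost fewer calls and left the type A arrays unchanged.

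The same step in Nrf2 mutant lung shares no arrays with the wild type step. The mutant label was borne out by Nfe2l2, which read 388 and 404 at 48 h and 376 and 318 at 72 h in the mutant, below every wild type array. In the mutant 550 probe sets (2.05%) were called between 48 h and 72 h, 243 higher (0.906%) and 307 lower (1.14%). Leaving out 1 replicate left 110 calls without mutant 48 h replicate 1a, 168 without 48 h replicate 1b, 193 without 72 h replicate 1a and 165 without 72 h replicate 1b. Of the 160 wild type calls, 139 had the same sign in the mutant (86.9%, beside 58.3% of all probe sets), and 73 were called there with that sign, 43 rises and 30 falls. With 2 called in the opposite direction, the calls shared were 46.9% of the wild type and 13.6% of the mutant calls. The median mutant difference was 0.71 over the 106 rises (1.25 in wild type) and -0.92 over the 54 falls (-1.11 in wild type). These probe sets were chosen by their wild type calls, a choice that favours large wild type differences. The medians therefore do not compare the size of the step between the genotypes.

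The chaperone fall occurred in both genotypes. Hspa1b in the mutant went from 13179 and 12370.5 to 1789 and 2162 (-2.65 ± 0.17, adjusted p = 0.000239), Hsph1 from 8350.2 and 8067 to 1896 and 1824 (-2.10 ± 0.18, adjusted p = 0.000623), and 7 of 15 heat shock genes fell. Lgi3 fell from 2163 and 1985 to 155 and 133 (-3.03 ± 0.25, adjusted p = 0.000263), Snhg12 rose by 1.20 ± 0.16 (adjusted p = 0.00347). Of the ATF4 group, Atf4 (0.80 ± 0.14, adjusted p = 0.0203) and Psat1 (0.99 ± 0.19, adjusted p = 0.0278) rose in the mutant, and Atf3, Chac1 and Trib3 stood at 0.44, 0.30 and 0.43 without a call. None of the 5 NRF2 targets described above was called in the mutant step. In the mutant Srxn1 had 97.8 and 112 at 48 h and 125 and 125 at 72 h, Slc7a11 195 and 316 and then 197 and 275, and Gclc 1504 and 1651 and then 1237 and 1021. Osgin1 had 36.3 and 47.7 and then 91.4 and 80.3 (0.33 ± 0.19), and Txnrd1 952 and 994.8 and then 1359 and 1103.7 (0.31 ± 0.17). The difference of the steps was 1.80 ± 0.26 for Srxn1 (adjusted p = 0.0595), 1.64 ± 0.30 for Slc7a11 (adjusted p = 0.109), 1.49 ± 0.27 for Gclc (adjusted p = 0.138), 0.72 ± 0.27 for Osgin1 (adjusted p = 0.623) and 0.63 ± 0.25 for Txnrd1 (adjusted p = 0.666), none of which passed. For Srxn1 the mutant values and the difference come from the probe set called in wild type. The brighter Srxn1 probe set, level in wild type, is not compared here.

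The test of the difference between the steps called 9 probe sets (0.0335%), 1 with the higher step in wild type (0.00373%) and 8 with the lower (0.0298%); 1848 (6.89%) had an unadjusted p under 0.05. It called 4 when wild type 72 h replicate 1a, either mutant 48 h replicate or mutant 72 h replicate 1b was left out, 5 without either wild type 48 h replicate or mutant 72 h replicate 1a, and 7 in the absence of wild type 72 h replicate 1b. For Edn1 the directions were opposite: the mutant rose from 2238 and 2196 to 4986 and 4987 (1.14 ± 0.15, adjusted p = 0.00551) where wild type fell, a difference of -2.03 ± 0.21 (adjusted p = 0.0105). Ankrd37, a target of hypoxia signalling, read 555 and 463 and then 441 and 550.5 in wild type (-0.03 ± 0.19) and 442 and 456 and then 2374 and 2163 in the mutant, a difference of -2.09 ± 0.27 (adjusted p = 0.0143). By brightest probe set, 0 of 21 hypoxia targets rose in wild type and 1 fell (P4ha1), beside 0.537% and 0.239% of all genes. The list's median was -0.10. In the mutant 1 rose and 1 fell, P4ha1 (-1.30 ± 0.17, adjusted p = 0.00473), with a median of 0.30. Adm, adrenomedullin, a vasodilator peptide, rose in both, in wild type from 264 and 359 to 973 and 1178 (1.57 ± 0.19, adjusted p = 0.0079) and in the mutant from 308 and 371 to 3034 and 3202 (2.94 ± 0.19, adjusted p = 0.000239); its difference of -1.37 ± 0.27 did not pass (adjusted p = 0.185), and its brighter type C probe set read -0.10 in wild type. Per1, which fell in wild type, stood at -0.02 ± 0.17 in the mutant, with a difference of -1.04 ± 0.24 that did not pass either (adjusted p = 0.313).

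**Figure D5:**
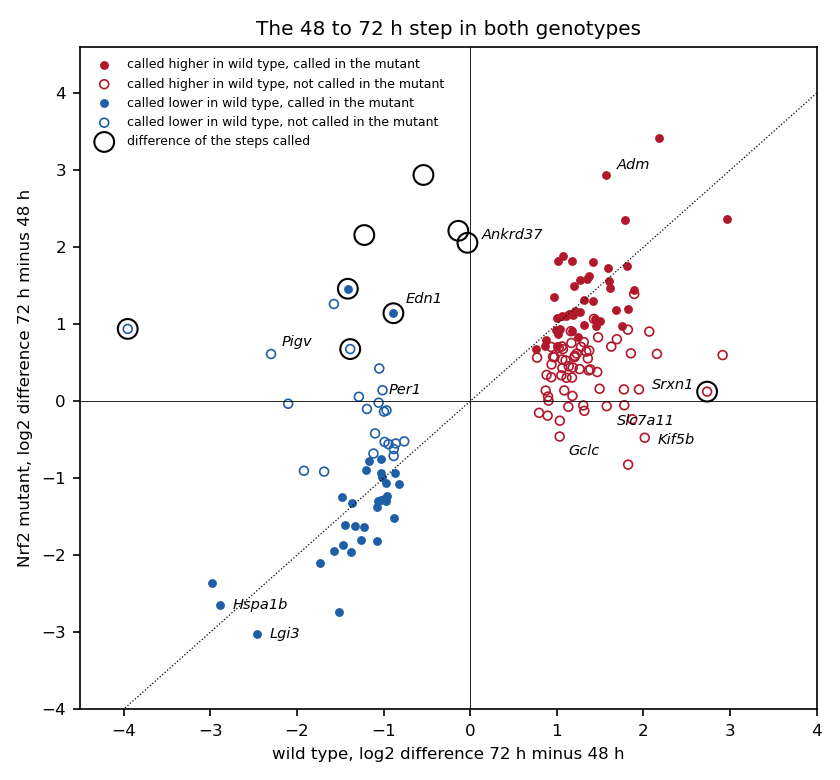
Log2 difference between 72 h and 48 h in wild type lung (x) against the same in Nrf2 mutant lung (y) for the 160 probe sets called in wild type, filled where the mutant step was called too, and for the 9 probe sets whose steps differed between genotypes by test, drawn as black rings; 5 rings lie on called points and 4, Ankrd37 among them, stand alone because those probe sets were not called in wild type; the dotted line marks equal differences. Hspa1b and Lgi3 lie near that line, Srxn1, Slc7a11 and Gclc lie near or under 0 on the mutant axis, and Edn1 lies on the opposite side of 0.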

How the data were processed

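Whole lung RNA was measured on 3 types of oligonucleotide array. The authors deposited 1 linear intensity for each probe set on an array. Which software or genome build they used is not given in the sources used here. No scaling was added to the deposited intensity; log2 was taken of its sum with the 25th percentile of the array type, and 66 control probe sets per type were dropped. Testing required at least 2 arrays above the 40th percentile of the type (195, 272 and 211 on A, B and C), which left 8515, 8952 and 9366 probe sets on A, B and C, for 13411 genes. Of all tested probe sets, 21868 had 1 gene symbol, 546 several and 4419 none in the annotation used. Symbols were updated through the Entrez ID of the probe set annotation.

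Groups came from the array titles. One limma 3.58.1 fit per array type (R 4.3.3, lmFit and eBayes) held all 8 groups of genotype and time, and p-values are two-sided and adjusted by Benjamini-Hochberg over all 3 types. The fit was tested on simulated data. Arrays carry no read depth; their number limits the precision. The mutant 0 h arrays, which stand apart from the rest, enter through the shared spread, the added value and the filter, not through the means compared.

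The arrays and gene lists were chosen with earlier results of these data known. A list uses the brightest tested probe set of each gene and carries no set test. Named genes were the 12 largest rises and 12 largest falls whose arrays do not overlap, the 4 largest of each direction for the mutant step and the difference of the steps, from each list at most 4 genes of lowest p, and 20 genes always named; further genes named were chosen after their values were seen. Promoter sequences are those of RefSeq on GRCm38.p6. The alternatives were another floor, quantile normalization, other filters on dim probe sets, fewer arrays in the fit, a replicate block, a trended and robust spread, adjustment within array type, type A on its own, and dropping each replicate in turn.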

Additional observations from a re-analysis of the deposited data

Results flagged for a closer look

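The step from 48 h to 72 h differed between wild type and Nrf2 mutant lung, by a test of the difference itself (limma, Benjamini-Hochberg adjustment), in 9 probe sets. Edn1 differed by -2.03 and Ankrd37 by -2.09 on the log2 scale (wild type step minus mutant step). The other 7 carry no single gene symbol, and 6 of these had the lower step in wild type. Probe set 95228_f_at had the largest difference, -4.89 ± 0.33 (adjusted p = 0.000695): it read 103 and 37.1 at 0 h, 4078 at 24 h, 2084 and 2062 at 48 h and 51.4 and 70.6 at 72 h in wild type, and 662 and 976 at 48 h and 1552 and 1677 at 72 h in the mutant. Probe set 100311_f_at fell in wild type, from 2881 and 3507 to 1233 and 1063, and rose in the mutant, from 1806 and 2070.1 to 5402 and 5512, a difference of -2.87. Probe set 103240_f_at went from 14357 and 12334 to 5018 and 5072 in wild type and from 9837 and 8648 to 15778 and 13856 in the mutant, a difference of -2.06. There were 3 called in the mutant step and not in the wild type step: 101566_f_at (difference -3.48), 133517_at (-3.38) and 161815_f_at (-2.35). In the other direction, 99915_at read 162 and 132 at 48 h and 1298 and 1544 at 72 h in wild type, against 940.3 and 1025 and then 1206 and 960.3 in the mutant, a difference of 2.61 ± 0.24 (adjusted p = 0.00387).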

How the results depend on the processing

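The count of wild type calls, 160 (106 rises, 54 falls), was 129 with a floor in place of the added value (118 of the 160 among them), 185 with quantile normalization (159), 122 with no filter on dim probe sets (119), 182 without the mutant 0 h arrays (154) and 210 on array type A alone. It was 290 (185 and 105) with a stricter filter, 292 (177 and 115) with a trended and robust spread, 269 (173 and 96) with adjustment within array type and 4 (1 and 3) with only the arrays compared. Leaving out 1 replicate gave 9 to 55 calls, 4 to 32 rises and 4 to 23 falls. A replicate block gave 232 calls with 159 of the 160 among them; the labels do not pair 1a and 1b, and same-numbered 48 h and 72 h arrays correlated in their deviations at 0.0959, 0.125 and 0.0413 on A, B and C, so the block was not used. The mutant step gave 550 calls, 5 with only its own arrays, 317 on type A alone, 110 to 193 without 1 replicate and 693 with the block. The difference of the steps gave 9, and 26 with the stricter filter, 4 with only the arrays compared, 19 with the block, 23 with the trended spread, 16 within array type, 15 on type A alone and 4 to 7 without 1 replicate. The step from 24 h to 48 h gave 17, and 10 with no filter, 36 with the stricter filter, 0 with only the arrays compared by limma (2592 at an unadjusted p under 0.05), 9 with the block, 38 with the trended spread, 27 within array type and 0 to 11 without 1 replicate. The causes were not tested. None of the 75 called probe sets followed through these alternatives changed sign. Some of the 75 share a gene or carry no gene symbol, and not every called gene named above is among them. Among named values without a call, some changed sign without 1 replicate: Ankrd37 ran from -0.16 to 0.095, Ptprd from -0.96 to 0.022, Ckm from -0.33 to 1.11, Nfe2l2 from -0.26 to 0.16, S100a9 from -0.057 to 0.22, Timp1 from -0.28 to 0.15, Sftpc from -0.061 to 0.35, Kdr from -0.49 to 0.20 and 161815_f_at from -0.29 to 0.012. Scgb1a1 went to 0.017 with quantile normalization. Intensity near the background limits dim probe sets most.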
